A study of Mus musculus with 8 samples.

Results

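The iron handling and hepcidin genes described here are 10 genes chosen by symbol from the 24462 genes in the deposited tables. They are *Hamp*, *Hamp2*, *Bmp6*, *Hfe*, *Tfr2*, *Tfrc*, *Trf*, *Slc40a1*, *Fth1* and *Ftl1*. The choice used names and not values, though earlier results of these data were known when it was made. All 10 reached the expression needed for testing in liver (an FPKM, the fragment density scaled to transcript length and library depth and summed over transcripts, of at least 1 in at least 2 of 4 libraries), and 8 did so in subcutaneous fat.

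RNA was sequenced from liver and subcutaneous fat of male C57BL/6 mice with (WT) or without (MKRN1 KO, called MKRN1-null here) the *Mkrn1* gene, which encodes an E3 ubiquitin ligase. The labels give a high-fat diet (HFD) of 19 weeks from the age of 6 weeks and an age of 24 weeks, which do not add up, and the paper's methods give a shorter HFD for its obesity experiments, so the length of the diet is uncertain. No group on a standard diet was compared. Each tissue and genotype had 2 libraries. The null allele had been crossed back to that strain, and WT mice were littermates of the mutants. The deletion was in the whole animal, so a difference in a tissue need not have arisen in that tissue. Nothing in the labels says whether replicates were separate litters or batches, and a p from 2 against 2 libraries measures only the spread between these samples.

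Iron enters plasma through ferroportin, the only known iron exporter of mammalian cells, which is encoded by *Slc40a1*. Hepcidin, the peptide hormone made by hepatocytes from *Hamp*, binds ferroportin and has it degraded, so that less iron leaves macrophages, enterocytes and hepatocytes. The liver sets hepcidin by bone morphogenetic protein (BMP) signalling through SMAD factors, by the sensors of transferrin-bound iron, and by interleukin-6 through STAT3. Inside cells, iron regulatory proteins bind hairpins called iron-responsive elements and thereby hold back translation of the ferritins and ferroportin or keep transferrin receptor mRNA from decay.

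The genotype labels were checked first. *Mkrn1* had an FPKM of 9.42 and 10.1 in the WT livers and 2.86 and 2.21 in the MKRN1-null livers, and 16.8 and 19.3 against 4.58 and 2.90 in adipose tissue, so every MKRN1-null library lay below every WT library of its tissue. Depth was 5.72 to 9.24 aligned gigabases per library. Hepatocyte markers summed to 51600 to 63900 FPKM in the livers and to at most 24.1 in adipose tissue. The MKRN1-null adipose tissue library of replicate 2 stood apart, since its 9 skeletal muscle markers summed to 93100 FPKM against 36.7 to 268 in the other adipose tissue libraries. Erythroid markers (8 of the 9 listed were found) summed to 1340 and 1440 FPKM in WT livers and to 1270 and 715 in MKRN1-null livers. In adipose tissue they summed to 2680 and 4440 FPKM in WT and to 11700 and 3920 in MKRN1-null replicates 1 and 2. The part of erythroid cells in the values of the iron genes was not tested. None of the 10 genes lies on chromosome 6, where *Mkrn1* is.

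The sequences that bear on these genes are shown first. *Hamp* lies on the reverse strand of chromosome 7 (mm10, 30942369 to 30944029), and *Hamp2*, a copy found in mice, lies beside it on the same strand (30922372 to 30924181). Their transcripts are 94.6% identical over 410 aligned bases, and the 250 bases before their start sites are 91.9% identical over 247 aligned bases. The promoters below come from RefSeq (GRCm38.p6, reverse strand, read 5′ to 3′ towards the start site), with capitals at the letters GGCGCC, the core of the BMP-responsive element, and TTCNNNGAA, the STAT site, both searched on both strands.
*Hamp* promoter, chr7:30944030-30944279: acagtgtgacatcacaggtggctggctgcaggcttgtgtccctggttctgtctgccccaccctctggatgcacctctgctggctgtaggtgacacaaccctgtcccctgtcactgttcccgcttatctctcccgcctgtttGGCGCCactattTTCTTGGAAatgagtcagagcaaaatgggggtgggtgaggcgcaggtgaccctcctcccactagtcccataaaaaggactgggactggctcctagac
*Hamp2* promoter, chr7:30924182-30924431: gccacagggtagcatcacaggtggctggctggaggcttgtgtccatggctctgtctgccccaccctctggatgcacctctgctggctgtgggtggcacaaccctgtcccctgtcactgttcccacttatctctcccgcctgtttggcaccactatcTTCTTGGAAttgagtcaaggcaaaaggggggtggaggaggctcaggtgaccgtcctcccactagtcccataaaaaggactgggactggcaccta
Both promoters held 1 STAT site, which begins 97 bases before the start of *Hamp* and 94 bases before that of *Hamp2*. The letters GGCGCC were found once in the *Hamp* window, 109 bases before the start, and not in the *Hamp2* window. Of 32851 mouse promoter windows of this length, 9.59% hold GGCGCC and 7.02% hold TTCNNNGAA. Of the 10 genes, 8 had an entry in the promoter table, and *Tfrc* was the only other one with a GGCGCC match, in 1 of its 2 windows. A match is a run of letters and not evidence of binding.

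Of the 10 genes, 4 carried the hairpin letters of an iron-responsive element in their GENCODE transcripts (release M21, mm10 coordinates). The search asked for an unpaired C, a stem of 5 bases, the loop CAGTGN in capitals, and 5 bases that pair with the stem, G with T allowed. It matched 294 of 21877 protein-coding genes (1.34%). The sites are shown because they separate the genes held back by iron regulatory proteins, with the hairpin in the 5′ UTR, from *Tfrc*, with hairpins in the 3′ UTR.
*Fth1*, 5′ UTR, chr19:9982738-9982754, forward strand: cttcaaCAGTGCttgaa
*Ftl1*, 5′ UTR, chr7:45459785-45459801, reverse strand: cttcaaCAGTGTttgaa
*Slc40a1*, 5′ UTR, chr1:45925471-45925487, reverse strand: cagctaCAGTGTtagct
*Tfrc*, 3′ UTR, chr16:32631225-32631241, forward strand: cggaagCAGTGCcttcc
*Tfrc*, 3′ UTR, chr16:32631604-32631620, forward strand: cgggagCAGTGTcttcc
*Tfrc*, 3′ UTR, chr16:32631669-32631685, forward strand: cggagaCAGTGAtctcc
*Tfrc*, 3′ UTR, chr16:32631716-32631732, forward strand: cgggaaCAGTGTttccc
*Tfrc* thus had 4 matches and each of the other genes 1. *Tfr2* had none under this search, nor did *Hamp*, *Hamp2*, *Trf*, *Hfe* and *Bmp6*.

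In the livers of MKRN1-null mice, *Hamp* mRNA was 2.94-fold that of WT mice, while mRNAs of both ferritin subunits, of the transferrin receptor and of *Hfe* were lower. At an adjusted p under 0.05 (limma on log2(FPKM + 1), Benjamini-Hochberg over 10808 genes), 1 of the 10 genes rose and 4 fell. Over all genes tested, 2.52% were called higher and 16.9% lower. The median gene was 0.175 lower on the log2 scale, so small decreases were common, and the change of each member relative to that median is given with it. In the plot of liver FPKM, *Hamp* and, by a small step, *Tfr2* are the members with both MKRN1-null libraries above both WT libraries.

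**Figure D1:**
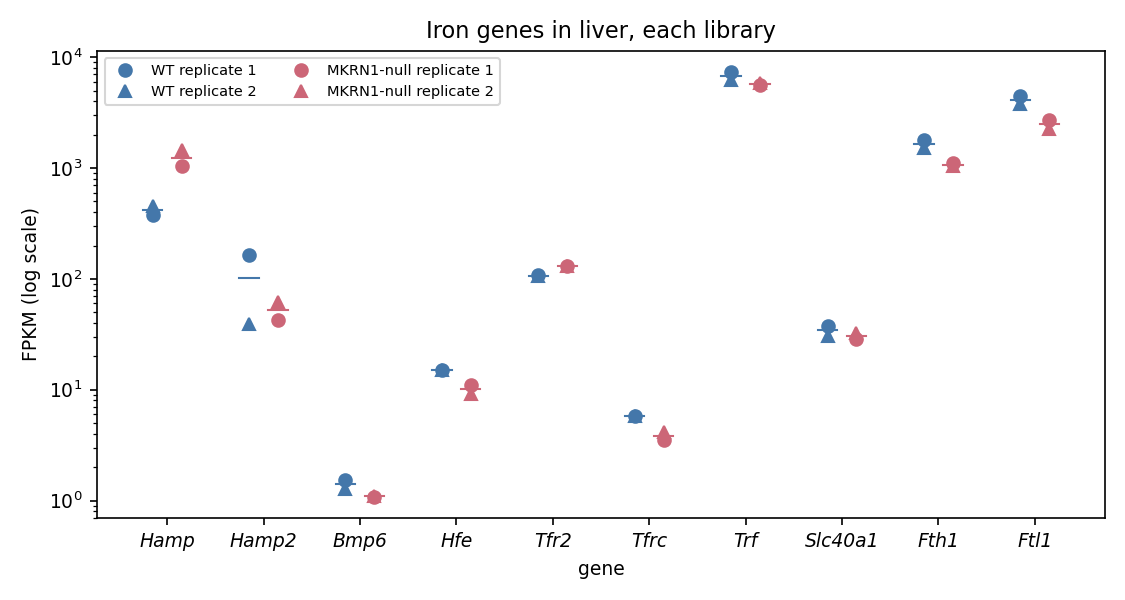
FPKM (log axis) of the 10 iron genes in each liver library, with WT in blue and MKRN1-null in red, circles for replicate 1, triangles for replicate 2 and a short line at the mean of the 2 libraries. *Hamp* lies at 379 and 458 in WT and at 1039 and 1445 in MKRN1-null livers, and the 2 WT values of *Hamp2* lie far apart, at 165 and 39.0.

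Of the hormone genes, *Hamp* had an FPKM of 379 and 458 in the WT livers and of 1039 and 1445 in the MKRN1-null livers. The groups did not overlap, and the lower MKRN1-null library was above the higher WT library. The log2 fold change was 1.56 ± 0.20 (SE, n = 2 per genotype, 95% interval 1.05 to 2.06, adjusted p = 0.0169 by limma), or 1.73 above the median gene. The call was lost without MKRN1-null replicate 2 (1.32, adjusted p = 0.0708 by limma) and without WT replicate 1 (1.42, adjusted p = 0.051 by limma).

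*Hamp2*, whose product is not known to act on ferroportin as hepcidin does, had 165 and 39.0 FPKM in WT against 43.0 and 61.3 in MKRN1-null livers. WT replicate 1 was high and the other 3 libraries were alike, so the groups overlapped. The log2 fold change was -0.64 ± 0.69 (SE, n = 2 per genotype, 95% interval -2.43 to 1.15, adjusted p = 0.528 by limma), an interval that spans both directions. Without WT replicate 2 it was -1.67 (adjusted p = 0.0304 by limma), and without WT replicate 1 it was 0.39 (adjusted p = 0.323).

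Since the copies are near-identical, reads may have been divided between them. Of the 361 windows of 50 bases in the *Hamp* transcript, 60 also occur in *Hamp2*, whereas no window of 100 bases does, and the longest shared run is 87 bases. The ratio of *Hamp* to *Hamp2* FPKM within a library was 2.29 and 11.7 in WT livers and 24.2 and 23.6 in MKRN1-null livers. Summed over both genes, FPKM was 543.8 and 497 in WT against 1082 and 1506 in MKRN1-null livers. The sum did not overlap between genotypes either (log2 fold change 1.3, adjusted p = 0.0189 by limma).

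Upstream of hepcidin, *Bmp6* encodes the BMP that liver endothelial cells secrete in response to iron. Its FPKM was 1.55 and 1.27 in WT against 1.09 and 1.10 in MKRN1-null livers, a level near the expression limit. Both MKRN1-null values were lower, and the log2 fold change of -0.20 ± 0.11 did not pass (adjusted p = 0.245 by limma).

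*Hfe*, the haemochromatosis protein that associates with transferrin receptors, had 14.9 and 15.1 FPKM in WT against 10.9 and 9.16 in MKRN1-null livers. The 2 WT values were close together and above both MKRN1-null values. *Hfe* fell by 0.54 on the log2 scale (SE 0.11, adjusted p = 0.0353 by limma), which is -0.36 relative to the median gene.

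*Tfr2*, the second transferrin receptor and a hepatocyte sensor of transferrin-bound iron, had 107.4 and 107.1 FPKM in WT against 129.5 and 129.6 in MKRN1-null livers. Replicates of a genotype were nearly equal and the genotypes did not overlap. The log2 fold change of 0.27 ± 0.07 did not pass (adjusted p = 0.0645 by limma). It was above 0 in all 15 alternatives and passed in 2 of them, among these median-of-ratios scaling (0.48, adjusted p = 0.0306 by limma). Transcripts from the most upstream start made up 90.4% and 92.2% of *Tfr2* FPKM in WT against 94% and 92.9% in MKRN1-null livers, a difference that was not tested.

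For uptake, *Tfrc* encodes transferrin receptor 1. It had 5.74 and 5.85 FPKM in WT against 3.51 and 4.15 in MKRN1-null livers, so that both MKRN1-null libraries were below both WT libraries. *Tfrc* fell by 0.49 on the log2 scale (SE 0.10, adjusted p = 0.0392 by limma), or by 0.32 relative to the median gene. *Trf*, the plasma iron carrier transferrin, had the highest FPKM of the members, though 77.3% of its 100-base windows also occur in the annotated gene *Gm20425* and its level is uncertain to that extent. It had 7357 and 6245 FPKM in WT against 5651 and 5807 in MKRN1-null livers. Its values were lower in both MKRN1-null livers, and the log2 fold change of -0.24 ± 0.13 did not pass (adjusted p = 0.235 by limma).

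*Slc40a1*, the exporter that hepcidin controls at the protein level, had 37.8 and 30.6 FPKM in WT against 29.0 and 32.5 in MKRN1-null livers. The groups overlapped (log2 fold change -0.15 ± 0.13, 95% interval -0.49 to 0.20, adjusted p = 0.448 by limma).

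The ferritin subunits both fell. *Fth1*, the heavy chain that oxidises iron, had 1795 and 1507 FPKM in WT against 1104 and 1044 in MKRN1-null livers. *Ftl1*, the light chain, had 4491 and 3816 FPKM in WT against 2695 and 2254 in MKRN1-null livers. The WT and MKRN1-null values did not overlap for either chain.

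*Fth1* fell by 0.62 on the log2 scale (SE 0.12, adjusted p = 0.0352 by limma) and *Ftl1* fell by 0.75 (SE 0.15, adjusted p = 0.0350). Relative to the median gene these were -0.44 and -0.57. The ratio of *Ftl1* to *Fth1* was 2.5 and 2.53 in WT against 2.44 and 2.16 in MKRN1-null livers. It was lower in both MKRN1-null livers, a difference that was not tested. Of the 100-base windows of the *Ftl1* transcript, 60.4% also occur in 4 other annotated genes, among them *Ftl1-ps1* and *Ftl2-ps*, and its level is uncertain to that extent. For *Fth1* the share was 0.573%.

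The 4 decreases were called in fewer alternatives than the *Hamp* increase. Not every alternative could change the values of every gene. *Hamp*, *Ftl1* and *Tfrc* have 1 transcript each, and summing *Hamp* with *Hamp2* left the values of the 4 lower genes as they were. All 4 lost their call after median-of-ratios scaling, with values of -0.32 for *Tfrc*, -0.40 for *Fth1*, -0.54 for *Ftl1* and -0.34 for *Hfe* (adjusted p from 0.0823 to 0.118 by limma), and leaving out single libraries ended most of them. *Hamp* was called in 13 of 15 alternatives, *Ftl1* in 9, *Fth1* in 7, and *Tfrc* and *Hfe* in 6 each, and no value of these 5 genes changed sign.

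**Figure D2:**
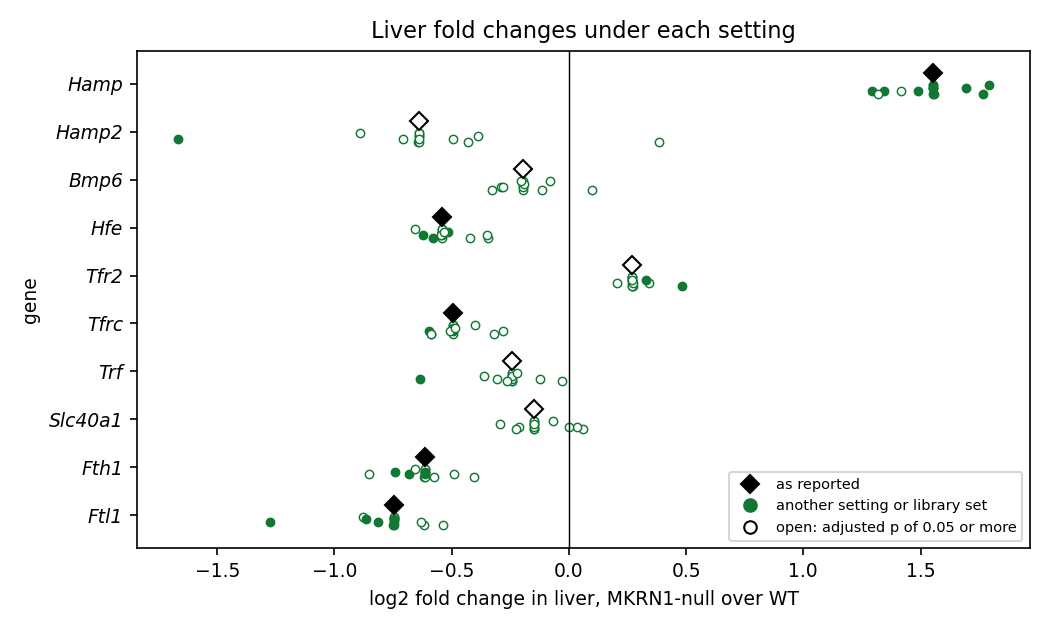
Log2 fold change of each gene in liver (x axis, MKRN1-null over WT) as reported (diamonds) and under each other setting or with 1 library left out (circles), filled where the adjusted p was under 0.05. *Hamp* stays between 1.3 and 1.79, whereas filled and open circles mix for *Hfe*, *Tfrc*, *Fth1* and *Ftl1*, and *Hamp2* ranges from -1.67 to 0.39.

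By the thresholds that carry the study's limits (an unadjusted p of at most 0.05 and a log2 change of at least 0.58), *Hamp* was higher and *Fth1* and *Ftl1* were lower. Of all genes, 2.25% were higher and 13.4% lower by the same limits. The groups did not overlap for 2 genes that were higher (*Hamp* and *Tfr2*) and 6 that were lower, against 11.8% and 57.6% of all genes.

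Other genes around the hepcidin pathway were counted by list. Of 15 genes of the BMP-SMAD and IL-6 arms that induce hepcidin, none passed at the adjusted threshold, where 19.5% of all genes did, and 1 passed the study's limits (the IL-6 receptor gene *Il6ra*, 0.87, adjusted p = 0.0595 by limma). *Hjv*, which encodes the BMP co-receptor hemojuvelin, had 54.6 and 57.2 FPKM in WT against 50.5 and 33.9 in MKRN1-null livers. Among 7 tested genes that restrain hepcidin, *Fkbp1a*, whose product FKBP12 binds the BMP type I receptor, fell by 1.27 on the log2 scale (adjusted p = 0.0101 by limma), from 46.0 and 48.6 to 20.5 and 17.6 FPKM. The protease gene *Tmprss6*, which cleaves that co-receptor, had 166 and 173 against 170.0 and 163 FPKM (log2 fold change -0.021 ± 0.08). None of the 6 SMAD target genes passed (median 0.22). *Id1* had 9.43 and 8.93 FPKM in WT against 17.4 and 11.4 in MKRN1-null livers (0.57, adjusted p = 0.109 by limma).

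The IL-6 and acute phase list held 17 genes, of which 1 rose and 8 fell, with a median of -0.71, where 2.52% of all genes rose and 16.9% fell. *Lcn2*, which binds bacterial siderophores, fell from 62.3 and 51.2 to 7.08 and 2.98 FPKM (log2 fold change -3.34 ± 0.35, adjusted p = 0.0136 by limma). The serum amyloid genes *Saa2* and *Saa1* fell by 2.98 and 2.57 and the orosomucoid gene *Orm2* fell by 2.41. *Orm1*, *Orm3*, *Apcs* and *Hp* fell too, and *Socs3*, a STAT3-induced inhibitor, rose by 0.43 (adjusted p = 0.0368 by limma). The list did not move as one. The groups did not overlap for 4 of its genes that were higher and 10 that were lower, against 11.8% and 57.6% of all genes. Those higher were *Socs3* and the fibrinogen genes *Fgb* (0.41), *Fga* (0.34) and *Fgg* (0.29), which did not pass (adjusted p from 0.0525 to 0.0867 by limma). *Crp* (-0.076) and *Itih4* (-0.053) changed little. *Hamp*, itself an acute phase gene, was higher in the same livers.

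**Figure D3:**
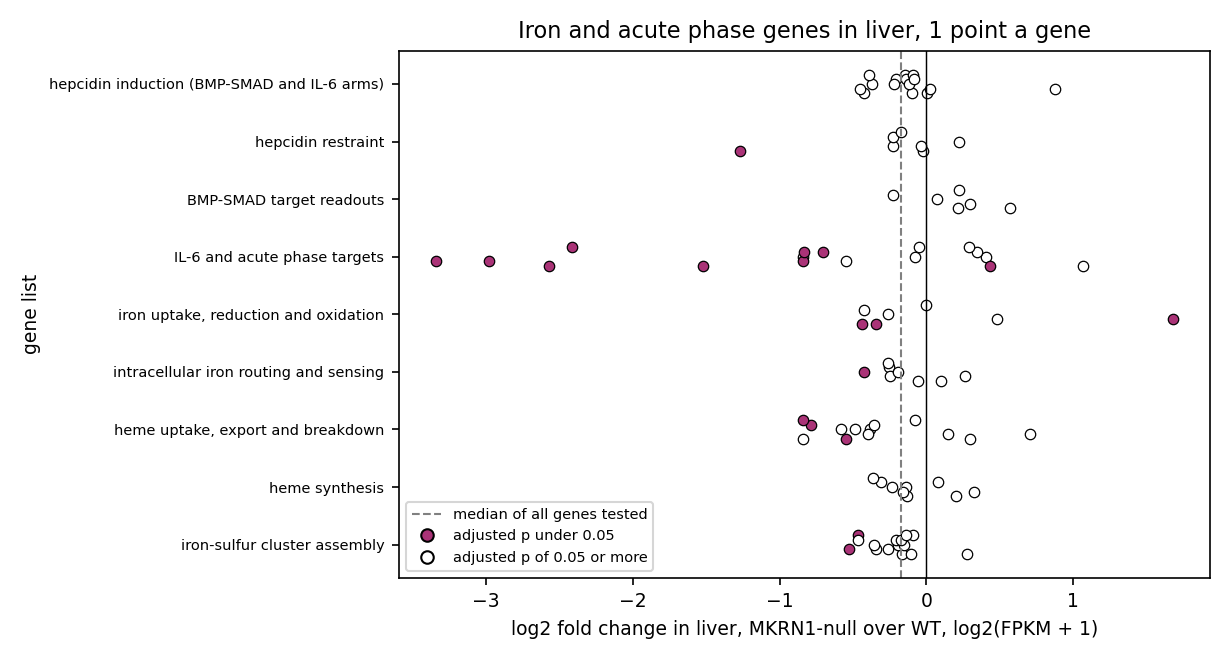
Log2 fold change in liver (x axis, MKRN1-null over WT) of each gene of 9 lists, filled where the adjusted p was under 0.05, with the median of all genes (-0.175) as a dashed line. The acute phase list reaches -3.34 (*Lcn2*), and the lists of hepcidin induction and SMAD targets hold no filled point.

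Marker genes of other liver cells were read beside these values. Kupffer cell and macrophage markers (9 of 9 detected in every liver library) summed to 255 and 139 FPKM in WT against 114 and 117 in MKRN1-null livers, and liver endothelial markers to 121 and 76.1 against 59.0 and 74.1. *Cd68*, *Lyz2* and *Lyve1* fell among them. Of the 8 endothelial markers, 7 were lower without overlap, against 57.6% of all genes, and the median was -0.63. The other, *Clec4g*, had 45.8 and 27.5 FPKM in WT against 26.9 and 36.2 in MKRN1-null livers. By the study's limits *Cdh5*, *Lyve1*, *Pecam1* and *Stab2* were lower, where 13.4% of all genes were. The macrophage list did not move as one, since 5 of its 9 markers were below WT and 4 above. Those above were *Marco* (0.99), *Timd4* (0.48), *Clec4f* (0.27) and *Vsig4* (0.042), and each overlapped between the genotypes (adjusted p from 0.313 to 0.964 by limma). Without *Lyz2*, the other 8 macrophage markers summed to 165 and 75 FPKM in WT against 85 and 87.6 in MKRN1-null livers, and the genotypes overlapped. Hepatocyte markers summed to 57700 and 51600 against 62400 and 63900. The part of these cell types in the changes of iron genes was not tested, and in bulk tissue fewer cells of a type and less RNA per cell cannot be told apart.

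Among the other iron genes, counts are to be read against the 2.52% of all liver genes that rose and the 16.9% that fell. Uptake, reduction and oxidation genes had 1 of 7 tested higher and 2 lower. *Scara5*, a ferritin receptor, rose from 0.381 and 2.08 to 5.09 and 6.13 FPKM (1.68, adjusted p = 0.0469 by limma), the ferroxidase gene *Cp* fell by 0.35 and the iron transporter gene *Slc11a2* fell by 0.44. Of 8 routing and sensing genes, *Fbxl5*, the iron-dependent subunit of the ligase that removes iron regulatory protein, fell by 0.43. Heme handling had 3 of 13 lower, near the share of all genes, namely *Hp* (0.84 lower on the log2 scale, from 4224 and 3726 to 2330 and 2097 FPKM), the plasma heme carrier gene *Hpx* and the heme transporter gene *Slc48a1*. None of 9 heme synthesis genes passed, and 2 of 15 iron-sulfur cluster assembly genes fell (*Iscu* and *Isca2*).

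The genes whose pattern over the 4 liver libraries was nearest to that of *Hamp*, among 10808, were *Cyp2c23*, *Cadm4* and *Obp2a*, at Euclidean distances of 0.124, 0.2 and 0.203 on the centred log2 scale. Those nearest to *Tfrc* were *Supt20*, *Vps18* and *Aif1*, at 0.033, 0.0382 and 0.0382.

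In adipose tissue no gene was called at an adjusted p under 0.05 by limma, of 12149 genes, and 783 had an unadjusted p under 0.05. None of the 8 testable iron genes was called either. *Tfr2* and *Slc40a1* passed the study's limits as lower, where 5.35% of all genes did. The groups did not overlap for *Tfrc* and *Fth1*, which were higher (9.03% of all genes), and for *Tfr2*, *Slc40a1* and *Bmp6*, which were lower (36.1%).

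**Figure D4:**
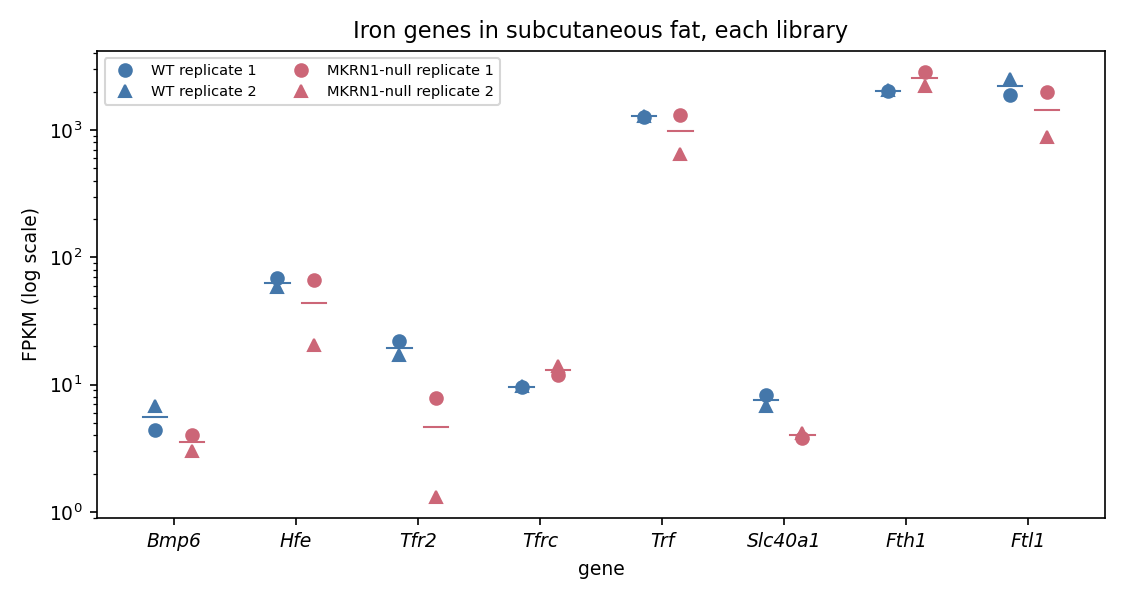
FPKM (log axis) of the 8 iron genes tested in subcutaneous fat, in each library, with WT in blue, MKRN1-null in red, circles for replicate 1, triangles for replicate 2 and a short line at the mean. MKRN1-null replicate 2, the library that holds skeletal muscle RNA, is the lowest of the 4 for *Tfr2* (1.32), *Hfe* (20.4), *Trf* (644.7), *Ftl1* (878) and *Bmp6* (3.01).

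Hepcidin mRNA was a liver transcript here. *Hamp* was listed at 0 in 3 adipose tissue libraries and at 0.303 FPKM in MKRN1-null replicate 2, and *Hamp2* at 0 in all 4, so no fold is given between the tissues or genotypes for them. The library with the 0.303 also had the highest summed hepatocyte markers of the adipose tissue libraries (24.1 FPKM), and the link between them was not tested.

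*Tfr2* had 21.8 and 17.2 FPKM in WT against 7.89 and 1.32 in MKRN1-null adipose tissue. Both MKRN1-null values were lower, and the lowest was in the library with skeletal muscle RNA. The log2 fold change was -2.17 ± 0.67 (unadjusted p = 0.0244, adjusted p = 0.68 by limma), and without that library -1.20 (adjusted p = 0.177 by limma). In the 2 WT libraries 94% and 95.5% of *Tfr2* FPKM came from the most upstream start, with 98.5% and 80.9% in the MKRN1-null ones.

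*Slc40a1* had 8.24 and 6.76 FPKM in WT against 3.80 and 4.18 in MKRN1-null adipose tissue. Both MKRN1-null libraries were near 4 and below both WT libraries. The log2 fold change was -0.76 ± 0.21 (unadjusted p = 0.0154, adjusted p = 0.68 by limma), and without the library with skeletal muscle RNA it was -0.82 (adjusted p = 0.208). Adipose tissue macrophages express ferroportin, and the macrophage markers summed to 706 and 1060 FPKM in WT and to 840 and 248 in MKRN1-null adipose tissue. Their part in this value was not tested.

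*Tfrc* was 9.59 and 9.66 FPKM in WT against 12 and 13.9 in MKRN1-null adipose tissue, and *Fth1* was 2007 and 2042 against 2854 and 2228. Neither passed (0.39 and 0.32, adjusted p = 0.68 and 0.763 by limma). *Fth1* was highest in MKRN1-null replicate 1, which had the highest summed erythroid markers (11700 FPKM), and *Tfrc* was highest in MKRN1-null replicate 2. *Trf*, *Hfe* and *Ftl1* overlapped between the genotypes, because only MKRN1-null replicate 2 was low. *Trf* had 1263 and 1293 against 1318 and 645, *Hfe* 68.5 and 58.1 against 66.8 and 20.4, and *Ftl1* 1883 and 2530 against 2000 and 878 FPKM. Without that library their log2 fold changes were 0.045, 0.081 and -0.13. *Bmp6* had 4.42 and 6.76 against 4.01 and 3.01 FPKM (-0.53, adjusted p = 0.68 by limma), with the lowest value in the library with skeletal muscle RNA.

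By the study's limits, *Smad6* and *Gdf15* of the hepcidin restraint list were lower in adipose tissue (-1.20 and -1.11), as were *Lcn2* (-2.08), *Cebpb* (-0.90), *Hephl1* (-1.45), *Slc39a8* (-0.73) and *Hpx* (-1.80), and *Orm3* was higher (0.85). None passed adjustment (adjusted p = 0.68 each by limma). Of 5 tested endothelial markers, *Cdh5*, *Kdr*, *Pecam1* and *Stab1* were lower by the same limits, and the median was -1.22. *Lyve1* was higher by those limits, with 12.5 and 9.85 FPKM in WT against 28.1 and 19.2 in MKRN1-null adipose tissue. The endothelial list summed to 174 and 220 FPKM in WT against 133 and 75.3 in MKRN1-null adipose tissue. The part of endothelial cells in the values of the genes above was not tested. *Hjv*, expressed by skeletal muscle as well as liver, was at 199 FPKM in MKRN1-null replicate 2 and at most 0.76 in the other adipose tissue libraries.

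**Figure D5:**
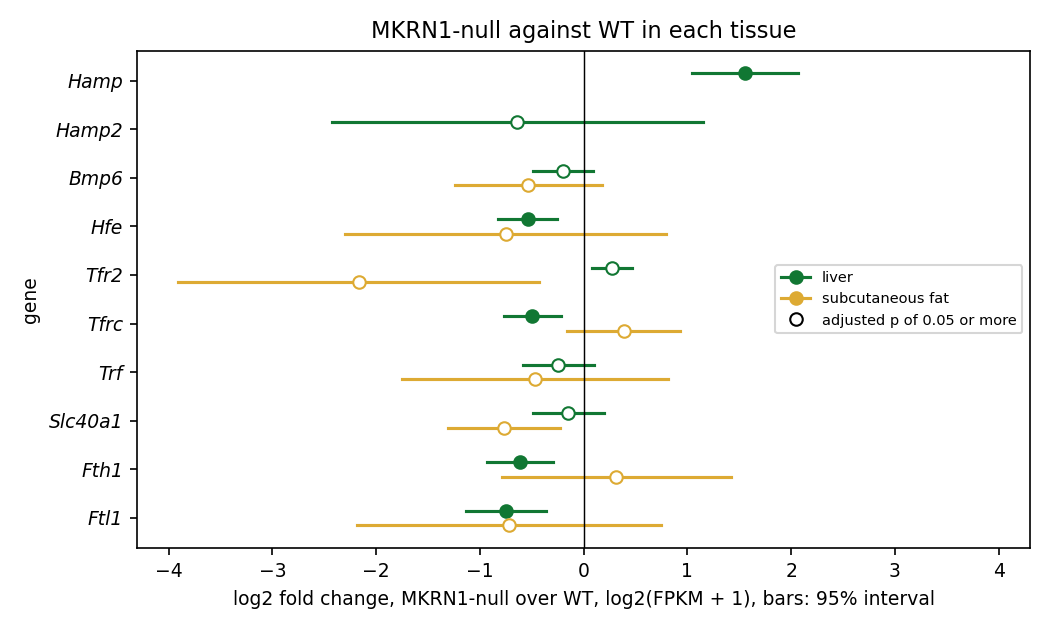
Log2 fold change (x axis, MKRN1-null over WT, on log2(FPKM + 1)) with its 95% interval for the iron genes in liver (green) and subcutaneous fat (yellow), filled where the adjusted p was under 0.05. *Tfrc*, *Fth1* and *Tfr2* lie on opposite sides of 0 in the 2 tissues, and the intervals are wider in adipose tissue.

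The tissue by genotype interaction asked whether the genotype difference differed between tissues. No gene of 9905 passed at an adjusted p under 0.05 by limma, and 766 had an unadjusted p under 0.05. Of the 8 genes tested in both tissues, *Tfrc* (-0.88), *Tfr2* (2.44), *Fth1* (-0.93) and *Slc40a1* (0.62) passed the study's limits (adjusted p = 0.414, 0.554, 0.554 and 0.613), where 6.47% of all genes did.

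Between the tissues of WT mice, 9 of the 10 genes were called, as were 80.2% of all 12782 genes tested, so that a call says little here. Liver exceeded adipose tissue for *Tfr2* (log2 fold change 2.41), *Trf* (2.41), *Slc40a1* (2.05) and *Ftl1* (0.92), and *Hamp* and *Hamp2* were listed at 0 in WT adipose tissue. Adipose tissue exceeded liver for *Hfe* (-2), *Bmp6* (-1.43) and *Tfrc* (-0.65), the last of which was -0.017 after median-of-ratios scaling. *Fth1* did not pass (-0.30, adjusted p = 0.0849 by limma), and with that scaling it was 0.41 (adjusted p = 0.0335).

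Ordered by level over all 4 groups, *Hamp* was highest in MKRN1-null liver and then WT liver, without overlap, while *Hamp2* overlapped between the livers. *Tfrc* and *Fth1* went from MKRN1-null adipose tissue through WT adipose tissue and WT liver to MKRN1-null liver, with no overlap between neighbours. *Tfr2* went from MKRN1-null liver through WT liver and WT adipose tissue to MKRN1-null adipose tissue, also without overlap. *Bmp6* went from WT adipose tissue through MKRN1-null adipose tissue and WT liver to MKRN1-null liver. For *Slc40a1* the 2 liver groups overlapped, for *Trf* and *Hfe* the 2 adipose tissue groups did, and for *Ftl1* only WT liver was separate from the next group.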

How the data were processed

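RNA of 8 libraries (liver and subcutaneous fat, 2 WT and 2 MKRN1-null each) was quantified by the authors with HISAT2, SAMtools and StringTie 1.3.3b on mm10, per the submitters' notes and the file headers. For HISAT2 and SAMtools no version was found. Each deposited file lists 36780 transcripts with coverage, FPKM and TPM, from 24532 gene IDs, of which 24462 matched a symbol in RefSeq (GRCm38.p6). The values the authors deposited are other than counts, so no count test was used. Depth was computed from the ratio of coverage to FPKM and limits the precision of scarce transcripts.

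FPKM was summed over transcripts per gene, log2(FPKM + 1) was taken, and genes at 1 FPKM or more in at least 2 of 4 libraries were tested by limma 3.58.1 in R 4.3.3 (eBayes with trend, two-sided, Benjamini-Hochberg over all genes tested). Each tissue was fitted by itself, the interaction over all 8 libraries, and the WT tissues over the 4 WT libraries. On simulated data, with 200 genes changed by 2 log2 units, the tested procedure recovered 200 in liver, 165 in adipose tissue, 170 in the interaction and 199 between WT tissues. That change is larger than those of the liver decreases reported here, so the recovery of such smaller changes is not known from it. False calls are not given. In the measured adipose tissue no gene was called. Python 3.11.15 with Biopython was used for sequences, which came from RefSeq promoters and GENCODE M21 transcripts.

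The members and lists were chosen with earlier results of these data known. All members, *Mkrn1* and up to 4 genes per list with the largest change past the adjusted threshold in liver, or past the study's limits in adipose tissue, were named. *Il6ra*, *Hjv*, *Tmprss6*, *Id1*, *Orm1*, *Orm3*, *Apcs*, *Socs3*, *Fgb*, *Fga*, *Fgg*, *Crp*, *Itih4*, *Cd68*, *Lyz2*, *Lyve1*, *Marco*, *Timd4*, *Clec4f*, *Vsig4*, *Clec4g*, *Stab2*, *Cdh5*, *Kdr*, *Pecam1* and *Stab1* fall outside this rule and were chosen after their values were seen. The nearest genes were the 3 with the smallest distance. Alternatives were a pseudocount of 0.1, TPM, no filter, a filter at 5 FPKM, median-of-ratios scaling, quantile normalization, no trend, all 8 libraries in one fit, a replicate block, leaving out each library, summing *Hamp* with *Hamp2*, and the most abundant transcript only.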

Additional observations from a re-analysis of the deposited data

Results flagged for a closer look

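The genotype difference went in opposite directions in liver and adipose tissue, in every library, for 3 genes. The share of all genes with this pattern is not given, so it cannot be called particular to the iron genes. *Tfrc* was lower in both MKRN1-null livers and higher in both MKRN1-null adipose tissue libraries than in WT, with a difference of the 2 changes of -0.882 on the log2 scale (adjusted p = 0.414 by limma). For *Fth1*, lower in liver and higher in adipose tissue, the difference was -0.932 (adjusted p = 0.554 by limma). *Tfr2* had the reverse pattern, higher in liver and lower in adipose tissue, with a difference of 2.44 (adjusted p = 0.554 by limma). None passed adjustment over 9905 genes. Without MKRN1-null adipose tissue replicate 2, the library with skeletal muscle RNA, the differences were -0.78 for *Tfrc*, -1.11 for *Fth1* and 1.47 for *Tfr2*. The MKRN1-null adipose tissue library then left, replicate 1, had the highest summed erythroid markers (11700 FPKM), whose part in these differences was not tested.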

How the results depend on the processing

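The number of iron genes called in liver, 5, was 1 with no filter, 2 with median-of-ratios scaling, 3 with quantile normalization, 1 with all 8 libraries in one fit, 2 with a replicate block and 0 to 4 with 1 library left out (0 without MKRN1-null replicate 2 or WT replicate 1, 1 without MKRN1-null replicate 1). By the study's limits 3 genes became 5 with TPM and 1 with median-of-ratios scaling. In adipose tissue 0 became 1 with the replicate block and 0 to 6 with 1 library left out (6 without MKRN1-null replicate 1), and 2 by the study's limits became 1 with median-of-ratios scaling and 1 to 6 with 1 library left out. In the interaction 0 became 0 to 5 with 1 library left out, and 4 by the study's limits became 2 with quantile normalization and 1 to 5.

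Over all genes, the 2103 liver calls became 1274 at a filter of 5 FPKM, 1242 with median-of-ratios scaling, 1033 with quantile normalization, 226 with all 8 libraries and 55 to 1880 with 1 library left out (55 without MKRN1-null replicate 2), and 1688 by the study's limits became 938 at the stricter filter. Lower genes were 87.1% of the liver calls, 64.6% with median-of-ratios scaling and 61.7% with quantile normalization, and 77.7%, 50% and 56.5% between WT tissues. In adipose tissue 0 calls became 1 with all 8 libraries, 422 with the block and 4 to 6284 with 1 library left out, and 736 became 436 at the stricter filter, 1402 with all 8 libraries, 1435 with the block and 496 to 5194. In the interaction 0 became 63 with no filter, 1 with median-of-ratios scaling, 3 with quantile normalization and 0 to 2646, and 641 became 994, 366 at the stricter filter and 333 to 2775.

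The direction changed in liver for *Slc40a1* with median-of-ratios scaling (0.059) and quantile normalization (0.036), and for *Bmp6* with quantile normalization (0.097). In adipose tissue it changed for *Fth1* with quantile normalization (-0.077), in the interaction for *Trf* with quantile normalization (-0.15) and *Ftl1* with TPM (0.0081), and between WT tissues for *Fth1* with median-of-ratios scaling (0.41). With 1 library left out, liver *Hamp2* ranged from -1.67 to 0.39 and *Slc40a1* from -0.29 to 0.00096, adipose tissue *Trf* from -0.99 to 0.045 and *Hfe* from -1.59 to 0.081, and the interaction of *Ftl1* from -0.62 to 0.56, of *Trf* from -0.29 to 0.74 and of *Hfe* from -0.62 to 1.05. The cause of these changes was not tested. Where a group was left with 1 library, that library was assumed to vary like the others. Without MKRN1-null adipose tissue replicate 1, the only MKRN1-null adipose tissue library left was the one with skeletal muscle RNA. With 1 library left out, the highest counts of called genes in adipose tissue and in the interaction came from that run. This held for the iron genes and for all genes, so its calls of iron genes are not read as results.

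Same-numbered WT and MKRN1-null libraries are from different mice. Their deviations correlated at 0.00616 in liver and 0.114 in adipose tissue, and those of liver with adipose tissue of a number at 0.0554 and 0.092, so the number was not taken as a pairing. The file headers give liver and adipose tissue of a number the same name, so these may come from 1 mouse, which the labels do not state and which the comparisons across tissues ignore. With the replicate block those comparisons kept their counts of iron genes (9 called between WT tissues, 0 called and 4 past the study's limits in the interaction). Within adipose tissue the block ties libraries of different mice, so its calls are not read as results. Under it *Tfr2* was 1 of 422 genes called (adjusted p = 3.75e-06 by limma, against 0.68 in the main fit, which called 0 genes). Summing *Ftl1* and *Fth1* with their processed copies was not run, since no such symbol was found in the tables used here.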
